A study of Mus musculus with 8 samples.

Results

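The genes of intraflagellar transport (IFT), the BBSome and the ciliary transition zone were followed from pachytene spermatocytes (PS) to round spermatids (RS) of the mouse. The group held 36 genes, chosen by symbol from 23343 genes in the expression tables: 9 of IFT-B, 5 of IFT-A, 2 of dynein-2, 6 of the BBSome, 2 of the chaperonin-like BBS genes and 12 of the transition zone. RNA-seq was from PS and RS of adult *Rnf8;Scml2*-dKO males, which lack both *Rnf8* and *Scml2*, and H3K27ac ChIP-seq was from PS and RS of adult wild-type males, with 2 biological replicates of each stage in each assay. All mice were of the C57BL/6 strain, and the cells came from testes by sedimentation through BSA gradients. Which mouse gave which replicate is not given in the sources used here, so p-values measure the spread between these libraries. For the dKO RNA, the paper describes a small-scale purification by which a single mouse could yield both stages. Whether PS and RS libraries share mice is not stated, and the main tests did not pair them. Because no wild-type RNA was analysed here, each RNA value describes dKO cells only, and the RNA and the H3K27ac values come from different genotypes. H3K27ac, the acetylation of lysine 27 of histone H3, marks active promoters and enhancers.

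IFT moves cargo along the microtubules of cilia and flagella. Trains that hold both IFT-B and IFT-A are carried outward by kinesin-2 and back by dynein-2. The BBSome is a coat-like adaptor that links membrane proteins to IFT, and the transition zone is the gate at the ciliary base that controls what enters. Male germ cells build their flagellum after meiosis, beginning in the round spermatid, and loss of several IFT proteins in the mouse disrupts the sperm tail.

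The 4 RNA libraries held 9655405 to 12289694 reads on genes. Peaks of H3K27ac numbered 41095 and 49434 in the PS libraries and 74919 and 45863 in the RS libraries, so RS replicate 1 stood apart in its number of peaks. In RNA, 7 of 9 PS markers were lower and 10 of 10 RS markers were higher in RS than in PS. The RS markers were also present in PS, at a summed RPKM of 582.3 and 868.2 against 11840 and 12540 in RS. The PS markers were likewise present in RS, at a summed RPKM of 760.8 and 802.3 against 1587 and 1515 in PS. Their part in the levels of RS below was not tested. Sertoli markers were low (summed RPKM 1.59 to 3.84), and 3 of the 4 blood markers had no reads. Macrophage markers summed to an RPKM of 1.05 and 1.204 in PS and 11.8 and 10.7 in RS, with 3 of 3 called higher, and spermatogonia markers to 21.1 and 15.8 in PS and 30.9 and 26.0 in RS, with 3 of 5 called higher. Of the Sertoli and peritubular markers, *Wt1* and *Cnn1* were also called higher, the latter list at a summed RPKM of 1.81 to 3.32. This is the direction of the genes that rose below, and the part of these markers in those rises was not tested. *Rnf8* was listed at an RPKM of 4.02, 4.88, 2.15 and 2.09 and *Scml2* at 0.724, 1.71, 0.649 and 1.72 in PS 1, PS 2, RS 1 and RS 2. These reads lie over whole genes, and the deleted parts are not given in the sources used here, so the levels do not check the genotype.

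All 36 genes had reads in every library and passed the filter of at least 10 reads in at least 2 libraries. *Cc2d2a* passed only through RS. RPKM scales reads by transcript length and library size and is used here to compare levels between genes. The RNA was amplified before the libraries were made, and the effect of this on levels between genes was not tested. The median RPKM of the 36 genes was 30.9 in PS and 20.6 in RS, against 5.31 and 5.09 over the 14647 genes tested, and 34 of the 36 lay above that median in PS and 30 in RS. Together the 36 genes took 0.783% and 0.736% of the gene reads in PS and 0.486% and 0.516% in RS.

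From PS to RS, 16 of the 36 genes (44.4%) fell and 5 (13.9%) rose, at an adjusted p under 0.05 in edgeR and a change of at least 1.5-fold. The same criteria called 27.6% of all genes tested lower and 30.4% higher. In either direction the share was 58.3%, against 58.0% of all genes. The genes that fell were *Ift46*, *Ift52*, *Ift20*, *Ift80*, *Ift140*, *Wdr35*, *Ttc21b*, *Dync2h1*, *Bbs1*, *Bbs2*, *Bbs4*, *Bbs9*, *Bbs10*, *Mks1*, *Tmem67* and *B9d2*, and those that rose were *Bbs5*, *Bbs12*, *Tctn2*, *Cep290* and *Rpgrip1l*. A further 4 genes (*Ift81*, *Ift172*, *Ift122* and *Wdr19*) passed the adjusted p but not the fold. The median log2 fold change was -0.35, against 0.01 over all genes. The RPKM of the stages did not overlap for 30 of the 36 genes (83.3%), against 83.6% of all genes tested.

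Leydig cell markers moved in the same direction as the genes that fell. All 5 were lower in RS, at a summed RPKM of 768.3 and 555.7 in PS and 71.2 and 44.3 in RS, and none was at 0. *Insl3*, the main one, was at 593.0 and 449.8 in PS and 60.0 and 35.8 in RS. Their part in the falls below was not tested. In bulk samples, fewer cells of a type and less RNA per cell cannot be told apart.

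**Figure D1:**
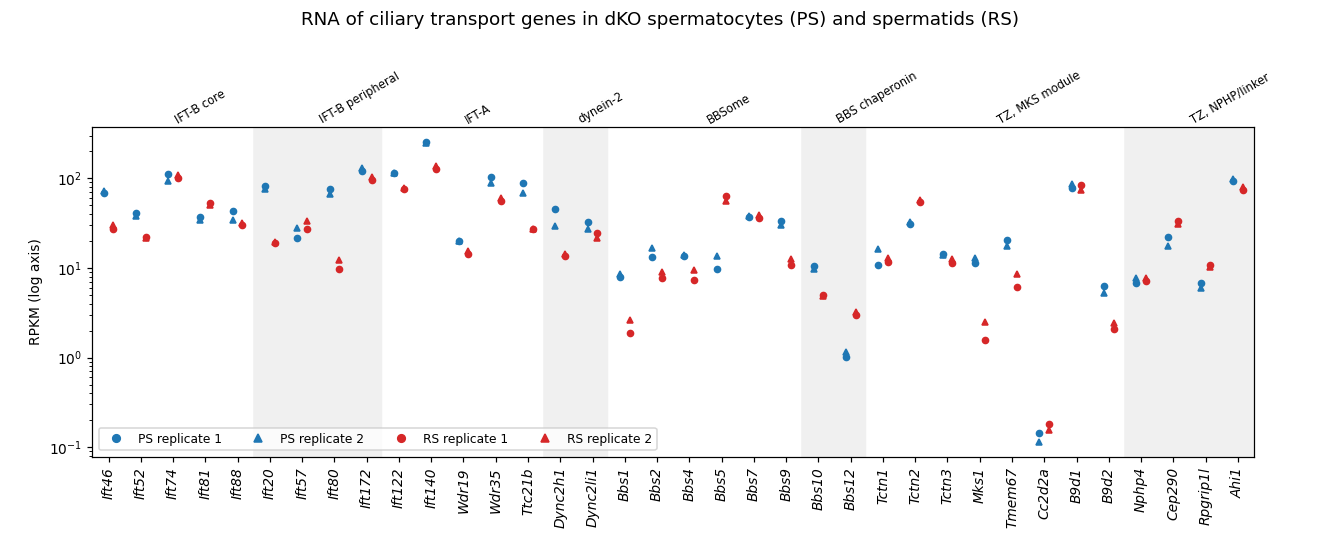
RPKM of each of the 36 genes (log axis) in the 4 dKO RNA libraries, with PS in blue, RS in red, replicate 1 as circles and replicate 2 as triangles, and shading for the role groups. *Ift140* was the most abundant in both stages (258.0 and 250.1 in PS) and *Cc2d2a* the least (0.184 or less), and 30 of the genes had no overlap between the stages.

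Among the core subunits of IFT-B, which form the stable body of that complex, 2 of 5 fell and none rose. *Ift46*, whose protein helps to carry outer dynein arms, had an RPKM of 69.0 and 73.2 in PS and 27.4 and 30.0 in RS. It was 2.41-fold lower in RS (log2 fold change -1.27 ± 0.13 SE, adjusted p 4.91e-05), with no overlap between the stages. *Ift52*, a scaffold of the core, went from 41.0 and 38.4 to 22.0 and 21.8, 1.76-fold lower (adjusted p 0.000761). *Ift74*, which with *Ift81* encodes the tubulin-binding pair, was the most abundant of this group, at 113.2 and 92.7 in PS and 99.8 and 108.6 in RS, and its stages overlapped. *Ift81* was at 37.5 and 34.6 in PS and 53.3 and 51.0 in RS, 1.49-fold higher (adjusted p 0.00330) and just under the fold threshold. It passed that threshold without PS replicate 1 and without RS replicate 2. The level of *Ift74* was above that of *Ift81* in every library. *Ift88*, needed for cilia and sperm tails, lay between 30.0 and 43.4 in all libraries and did not pass the test (adjusted p 0.105).

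The peripheral subunits of IFT-B held the largest fall of the 36 genes. *Ift80* was at 75.6 and 66.5 RPKM in PS and 9.63 and 12.2 in RS. The stages were far apart, and the gene was 6.34-fold lower in RS (log2 fold change -2.66 ± 0.15 SE, adjusted p 4.22e-06). *Ift20*, the subunit that also sits at the Golgi and brings membrane cargo to the cilium, went from 81.8 and 75.4 to 19.0 and 19.7, 3.95-fold lower (log2 fold change -1.98 ± 0.15 SE, adjusted p 1.26e-05). *Ift172*, which acts where trains turn around at the tip, was the most abundant of the group, at 122.0 and 131.5 in PS and 95.1 and 103.5 in RS. It was lower in both RS libraries but only by 1.24-fold (adjusted p 0.0428). *Ift57* overlapped between the stages (21.7 to 27.9 in PS, 27.1 to 33.6 in RS) and was not called, although without PS replicate 2 it passed as higher. In PS these 4 genes spanned 21.7 to 131.5 RPKM, and in RS the highest of the 9 IFT-B means was 9.56-fold the lowest, against 5.11-fold in PS.

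All 5 IFT-A genes had fold changes below 0, and 3 fell. *Ift140*, a core subunit of IFT-A (NM_134126, chr17:25016086-25099497 of mm10, plus strand), was the most abundant of the 36 genes. Its RPKM was 258.0 and 250.1 in PS, the 98.7th percentile of the genes tested, and 128.6 and 135.7 in RS. It was 1.87-fold lower in RS (log2 fold change -0.90 ± 0.11 SE, adjusted p 0.000133). Its share of the summed IFT-A RPKM was 44.3% and 46.1% in PS and 42.7% and 42.8% in RS, so the level of the group and that of *Ift140* went down together. *Ttc21b*, which encodes the peripheral subunit IFT139, fell the most in the group, from 88.4 and 68.8 to 26.97 and 27.6 (2.80-fold, adjusted p 3.54e-05). *Wdr35*, which encodes IFT121, went from 102.9 and 87.9 to 55.3 and 59.6 (1.61-fold, adjusted p 0.00123). Its call was lost under a filter of 50 reads, although it had more than 50 reads in every library. *Ift122* and *Wdr19*, both core subunits, were 1.45-fold and 1.29-fold lower, with no overlap of the stages, and stayed under the fold threshold. The summed IFT-A RPKM was 582.6 and 543.2 in PS and 300.8 and 317.0 in RS.

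Dynein-2, the motor of retrograde IFT, was represented by its heavy chain and a light intermediate chain. *Dync2h1*, the heavy chain that carries the motor, was at 45.3 and 29.7 RPKM in PS and 13.7 and 14.4 in RS. It was 2.58-fold lower in RS (log2 fold change -1.37 ± 0.18 SE, adjusted p 0.000237), and the PS replicates were farther from each other than the RS replicates. *Dync2li1*, the light intermediate chain, was at 32.9 and 27.3 in PS and 24.5 and 21.8 in RS, 1.26-fold lower, which did not pass the test (adjusted p 0.101).

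The BBSome subunits went in opposite directions. *Bbs5* (NM_028284, chr2:69647255-69667569 of mm10, plus strand), which encodes a subunit that binds phosphoinositides of the membrane, had an RPKM of 9.83 and 13.5 in PS and 63.4 and 55.5 in RS. It was 5.23-fold higher in RS (log2 fold change 2.39 ± 0.20 SE, adjusted p 1.81e-05), the largest rise of the 36 genes, with both RS libraries far above both PS libraries. *Bbs1*, the subunit that contacts the GTPase ARL6, was at 8.01 and 8.46 in PS and 1.89 and 2.65 in RS, 3.54-fold lower (log2 fold change -1.82 ± 0.20 SE, adjusted p 8.41e-05). *Bbs9*, part of the structural core, went from 33.8 and 30.3 to 10.9 and 12.7, 2.65-fold lower (adjusted p 5.74e-05). *Bbs2*, also in the core, went from 13.3 and 16.5 to 7.66 and 9.05 (1.74-fold, adjusted p 0.00499). The call of *Bbs2* was lost without PS replicate 2. *Bbs4*, at 13.7 and 13.9 in PS and 7.25 and 9.55 in RS, was also lower (1.60-fold, adjusted p 0.0106). The call of *Bbs4* was lost without RS replicate 1. It was also lost under the filter of 50 reads, although *Bbs4* had more than 50 reads in every library. *Bbs7*, the most abundant by its mean over the libraries, was at 37.1 and 38.3 in PS and 36.1 and 39.1 in RS, and its stages overlapped.

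The summed RPKM of the 6 BBSome genes stayed between 115.8 and 128.5 in the 4 libraries while its makeup differed. *Bbs5* made up 8.49% and 11.2% of this sum in PS and 49.8% and 43.2% in RS. The highest mean was 4.57-fold the lowest in PS (*Bbs7* over *Bbs1*) and 26.2-fold in RS (*Bbs5* over *Bbs1*). The other subunits and regulators of the BBSome that are not among the 36 genes held 3 that fell and none that rose, of 7. *Ttc8*, which encodes the subunit BBS8, went from an RPKM of 12.4 and 11.9 to 1.51 and 1.64 (7.47-fold lower, adjusted p 8.03e-06), and *Bbip1*, its smallest subunit, from 40.5 and 35.8 to 22.6 and 23.1. *Mkks*, a chaperonin-like gene, was 1.89-fold lower (adjusted p 0.00821).

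**Figure D2:**
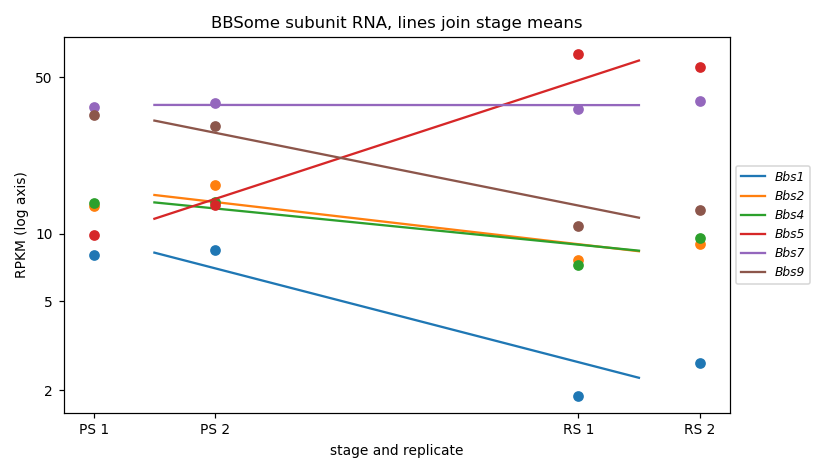
RPKM (log axis) of the 6 BBSome genes in each dKO RNA library, with points for the libraries and lines joining the means of the 2 PS and the 2 RS libraries. The line of *Bbs5* goes up (from 9.83 and 13.5 to 63.4 and 55.5) and crosses those of *Bbs2*, *Bbs4*, *Bbs7* and *Bbs9*, *Bbs7* stays level and *Bbs1*, *Bbs2*, *Bbs4* and *Bbs9* go down.

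The chaperonin-like genes, whose products help to assemble the BBSome, changed in opposite directions. *Bbs10* was at 10.4 and 9.84 RPKM in PS and 4.96 and 4.81 in RS, 2.01-fold lower (log2 fold change -1.01 ± 0.17 SE, adjusted p 0.000968). *Bbs12* was at 1.01 and 1.15 in PS and 3.02 and 3.25 in RS, 3.02-fold higher (log2 fold change 1.60 ± 0.27 SE, adjusted p 0.000936). Neither gene had overlapping stages. *Bbs12* was the lesser of the pair in every library.

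Of the 8 genes of the MKS module, the membrane-associated complex of the transition zone, 3 fell and 1 rose. *Mks1*, which encodes a B9-domain protein (NM_001039684, chr11:87853225-87863679 of mm10, plus strand), was at 11.4 and 13.0 RPKM in PS and 1.57 and 2.48 in RS. It was 5.91-fold lower in RS (log2 fold change -2.56 ± 0.25 SE, adjusted p 4.32e-05), the second largest fall of the 36 genes. Its B9-domain partners differed from each other. *B9d2* went from 6.36 and 5.20 to 2.10 and 2.41 (2.49-fold lower, adjusted p 0.00396), whereas *B9d1*, the most abundant of the module, was at 78.4 and 85.4 in PS and 84.8 and 74.0 in RS, with overlapping stages. *Tmem67*, the membrane protein meckelin, went from 20.7 and 17.6 to 6.08 and 8.65 (2.53-fold lower, adjusted p 0.000380).

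The tectonics, secreted or membrane proteins of the same complex, were 3 of these genes and only 1 of them was called. *Tctn2* was at 30.7 and 32.6 RPKM in PS and 54.3 and 57.1 in RS, 1.81-fold higher (log2 fold change 0.85 ± 0.13 SE, adjusted p 0.000470). *Tctn1* and *Tctn3* lay between 10.8 and 16.1 in all libraries and did not pass. *Tctn1* shares 27.5% of its exon bases with the neighbouring *Hvcn1*, *Tmem67* shares 9.92% with its neighbours and *Cep290* shares 9.45% with *4930430F08Rik*. Whether strand was used in counting is not stated, so reads in these overlaps cannot be told apart. *Cc2d2a* had 9 and 7 reads in PS and 14 and 10 in RS (RPKM 0.116 to 0.184), and no difference was detectable at this depth.

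In the NPHP module and the linker to the axoneme, 2 of 4 rose and none fell. *Cep290*, which bridges the microtubules and the ciliary membrane, was at 22.3 and 17.6 RPKM in PS and 33.6 and 30.7 in RS, 1.66-fold higher (log2 fold change 0.73 ± 0.14 SE, adjusted p 0.00189). *Rpgrip1l*, a scaffold of the transition zone, was at 6.75 and 6.05 in PS and 10.9 and 10.4 in RS, 1.71-fold higher (log2 fold change 0.77 ± 0.14 SE, adjusted p 0.00128). Both changes were close to the 1.5-fold threshold. *Ahi1*, the gene of the scaffold jouberin, was the most abundant, at 94.6 and 97.9 in PS and 74.6 and 81.0 in RS, lower in both RS libraries without passing the test (adjusted p 0.0539). *Nphp4* was at 6.84 to 7.75 throughout.

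**Figure D3:**
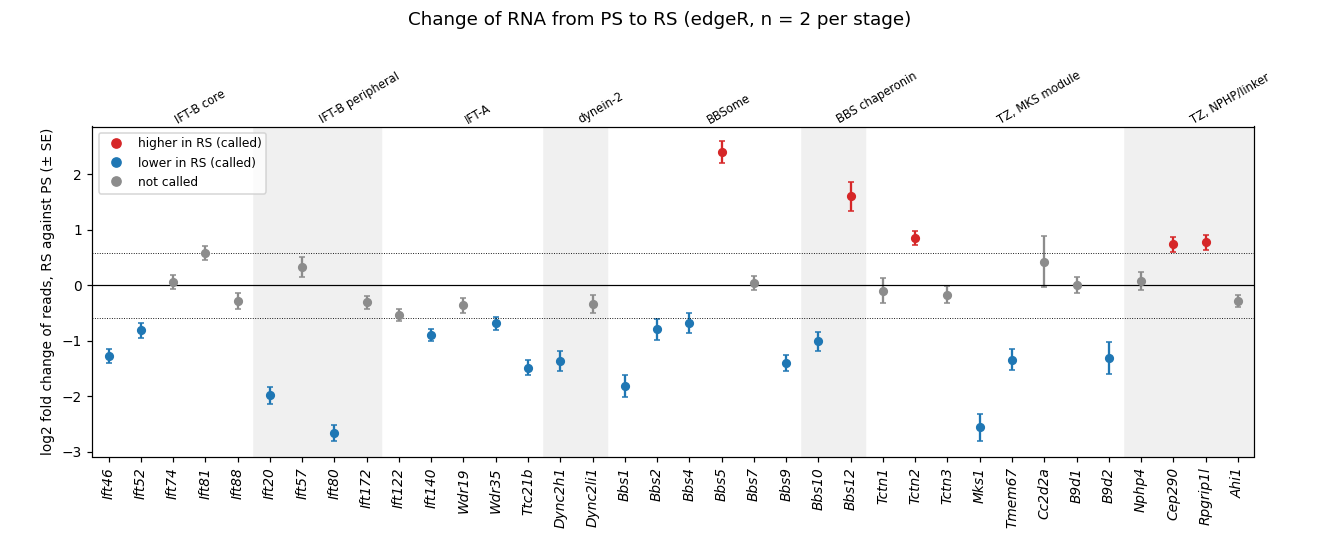
Log2 fold change of RNA from PS to RS in dKO cells for each gene, with bars of ± 1 SE (edgeR, 2 libraries per stage) and dotted lines at the 1.5-fold threshold. The 16 genes called lower are blue, the 5 called higher are red and the 15 not called are grey, and the values run from -2.66 (*Ift80*) to 2.39 (*Bbs5*).

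Further genes of the same machinery that are not among the 36 fell into 4 lists. For comparison, 27.6% of all genes tested were called lower and 30.4% higher. Of 10 other IFT subunits, 5 fell and none rose. Among the tetratricopeptide genes of IFT-B, *Ttc30a1* went from 26.8 and 18.5 RPKM to 2.02 and 2.37 (10.0-fold lower, adjusted p 7.17e-06) and *Ttc26*, which encodes IFT56, from 22.3 and 18.2 to 7.79 and 8.55 (2.40-fold, adjusted p 0.000135). The copies *Ttc30a1*, *Ttc30a2* and *Ttc30b* are near-identical, so the split of reads between them is uncertain. *Ift27*, a small GTPase of IFT-B, was 2.40-fold lower (adjusted p 0.000176) and its partner *Hspb11*, which encodes IFT25, 1.90-fold lower (adjusted p 0.00171).

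Of 8 genes of kinesin-2 and other dynein-2 subunits, 2 rose and 1 fell. *Kif17*, the homodimeric kinesin-2, went from 13.2 and 19.2 RPKM to 133.8 and 137.7 (8.60-fold higher, adjusted p 5.44e-06), and *Kifap3*, the adaptor of the heterotrimeric motor, from 31.0 and 28.3 to 108.8 and 98.7 (3.61-fold, adjusted p 7.19e-06). *Kif3a* and *Kif3b*, the motor subunits that *Kifap3* joins, were 1.22-fold and 1.17-fold lower and did not pass (adjusted p 0.0739 and 0.102). *Wdr34*, an intermediate chain of dynein-2, went from 62.3 and 65.2 to 14.1 and 17.5 (3.93-fold lower, adjusted p 1.34e-05). Of 11 other transition zone genes, 4 rose and 3 fell. *Spata7* was 9.07-fold higher (22.9 and 26.1 RPKM in PS, 234.6 and 197.9 in RS), *Tmem231* was 3.30-fold lower, *Invs* was 2.29-fold lower and *Tmem237* was 2.15-fold higher.

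At the start sites, H3K27ac was present for nearly all of the genes in wild-type cells. A peak lay within 2 kb of the start site in both replicates of PS for 35 of 36 genes (97.2%) and in both replicates of RS for 35 of 36. Over all 23343 genes these shares were 55.5% in PS and 50.8% in RS. That total includes genes that did not pass the RNA filter, whereas all 36 genes passed it. Of the 14647 genes that passed, 10773 had a peak in all 4 samples. *Cc2d2a*, which had the fewest reads, had a single peak, in PS replicate 1, with a fold enrichment of 3.29 over the background of the library. The other 35 genes had a peak in all 4 samples, with fold enrichments of 6.97 to 39.5. *Ift80* had the strongest in PS (37.5 and 39.5), and *Mks1* had the weakest in RS of the 35 genes (8.14 and 6.97). For 9 of the 36 genes (25.0%) another gene also started within 2 kb, always on the opposite strand, against 16.2% of all genes: *Ift20*, *Ift80*, *Ift122*, *Ift140*, *Bbs12*, *Tmem67*, *Nphp4*, *Cep290* and *Rpgrip1l*. Their peaks cannot be assigned to a single gene.

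The fold enrichment was lower in RS for most genes of the genome, with a median log2 difference of -0.42 over the 11394 genes tested, so each sample was centred on its median and changes are relative to it. On that scale 7 of the 35 genes (20.0%) were higher and 3 (8.57%) lower in RS in limma, against 16.2% and 13.9% of all genes tested (30.2% in either direction). Without centring, 1 was higher (*Bbs5*) and 6 were lower (*Ift20*, *Bbs9*, *Bbs10*, *Ift46*, *Ttc21b* and *Nphp4*), against 8.2% and 33.0% of all genes (41.2% in either direction), and 12 of the 35 genes changed sign. The fold enrichments of the stages did not overlap for 23 of the 35 genes (65.7%), against 72.3% of all genes tested.

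The clearest gain was at *Bbs5*, with a fold enrichment of 15.6 and 19.7 in PS and 30.1 and 26.1 in RS. It was 2.14-fold higher in RS after centring (log2 difference 1.10 ± 0.15 SE, adjusted p 1.58e-07), with no overlap. It was the only one of the 7 whose call held without centring (log2 difference 0.67, adjusted p 0.0245). *Bbs1*, whose RNA fell, had 7.82 and 11.0 in PS and 14.2 and 13.4 in RS (centred log2 difference 1.00 ± 0.20 SE, adjusted p 0.000105). *Tctn2* had 15.2 and 12.6 in PS and 20.3 and 18.0 in RS (0.89 ± 0.17, adjusted p 4.50e-05). In these genes both RS samples were above both PS samples also in the uncentred values.

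The other gains were at genes whose RNA was not called. At *Ift88* the enrichment was 19.3 and 16.4 in PS and 26.9 and 21.5 in RS (centred log2 difference 0.85 ± 0.15 SE, adjusted p 1.77e-05). *B9d1* had 11.9 and 16.4 in PS and 19.9 and 16.8 in RS (0.81 ± 0.17, adjusted p 0.000144), and *Ift57* had 16.5 and 17.5 in PS and 22.8 and 20.3 in RS (0.76 ± 0.15, adjusted p 8.94e-05). The uncentred differences of these genes were above 0 but did not pass (adjusted p 0.181, 0.278 and 0.314). *Dync2li1*, at 8.64 and 11.0 in PS and 12.2 and 11.0 in RS, was called higher (0.68 ± 0.20, adjusted p 0.00658), but not without PS replicate 1, nor without RS replicate 2.

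The 3 losses held with and without centring. At *Bbs10* the enrichment was 27.2 and 31.8 in PS and 11.8 and 8.71 in RS (centred log2 difference -1.11 ± 0.16 SE, adjusted p 3.35e-07). *Bbs9* had 31.7 and 37.8 in PS and 16.3 and 11.0 in RS (-0.95 ± 0.15, adjusted p 1.77e-06). *Ift20* had 28.0 and 31.2 in PS and 18.3 and 11.0 in RS (-0.64 ± 0.15, adjusted p 0.000738). Before centring, both PS samples were above both RS samples at each of them. After centring, *Ift20* was 1.55-fold lower in RS, close to the 1.5-fold threshold. The call of *Ift20* was lost without RS replicate 2, and its start site lies 176 bases from that of *Tnfaip1*.

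**Figure D4:**
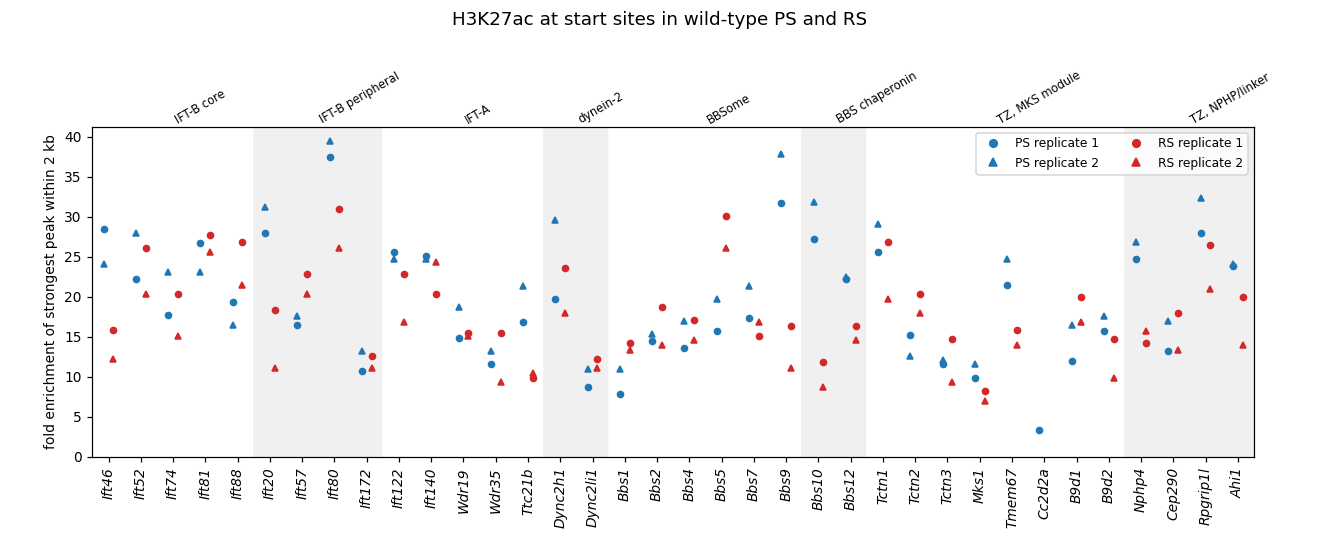
Fold enrichment of the strongest H3K27ac peak within 2 kb of each start site (linear axis, not centred) in the 4 wild-type samples, PS in blue and RS in red, with circles for replicate 1 and triangles for replicate 2. *Bbs5* has both RS points above both PS points, *Bbs9*, *Bbs10* and *Ift20* have both RS points well below, and *Cc2d2a* has a point in PS replicate 1 only.

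Set beside each other, 5 genes were called in RNA and in centred H3K27ac in the same direction, although the assays came from different genotypes. The genes in this tally depended on centring. Without it, *Tctn2* and *Bbs1* were not called in H3K27ac, and *Ift46* and *Ttc21b* were lower in both assays. The counts that follow use the centred calls. *Bbs5* and *Tctn2* were higher in both, *Ift20*, *Bbs9* and *Bbs10* were lower in both, and *Bbs1* was lower in RNA and higher in H3K27ac. A further 15 genes were called in RNA only, 4 in H3K27ac only and 10 in neither. The same joint counts were not made over all genes, so these describe the 35 genes only. Of all genes tested, 58.0% were called in RNA and 30.2% in centred H3K27ac. The largest falls in RNA, at *Ift80* and *Mks1*, came with centred H3K27ac differences of -0.01 and -0.08, neither of which passed. Across the 35 genes the log2 differences were correlated with r = 0.44 (Pearson) and rho = 0.43 (Spearman), and over 10773 genes tested in both assays rho was 0.42. The genes share their libraries, so this is a description without a p.

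**Figure D5:**
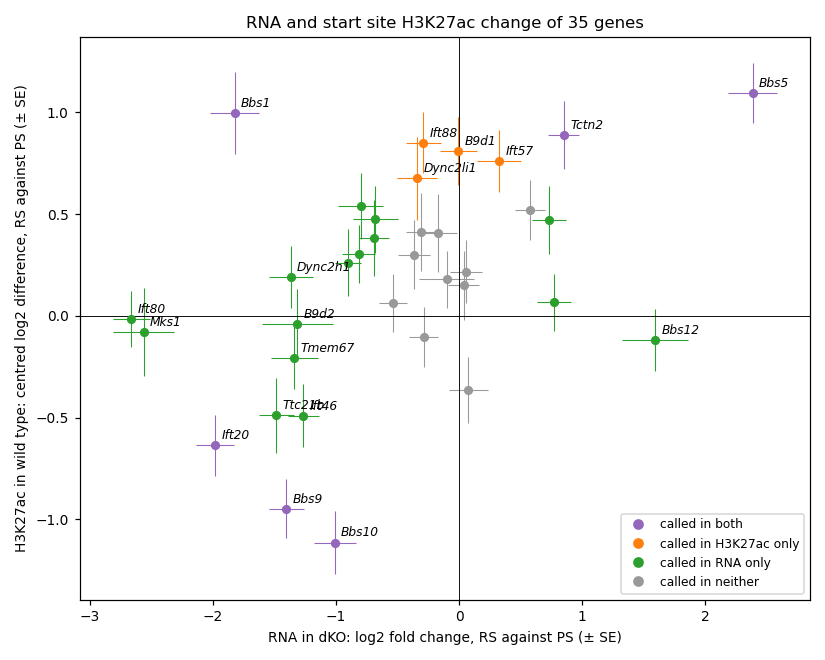
Change of start site H3K27ac in wild-type cells (vertical axis, centred log2 difference) against change of RNA in dKO cells (horizontal axis, log2 fold change), both RS against PS with bars of ± 1 SE, for 35 genes coloured by the assay in which they were called. *Bbs5* and *Tctn2* lie at the upper right, *Ift20*, *Bbs9* and *Bbs10* at the lower left, *Bbs1* at the upper left and *Ift80* and *Mks1* at the far left near 0; without centring, 12 of the genes would cross the horizontal line.

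The promoters of the 5 genes called in both assays in the same direction are shown as the 150 bases before the RefSeq start site on GRCm38.p6 (the mm10 assembly), 5′ to 3′ on the strand of the gene. The start site in this promoter table lies 84 bases upstream of the start in the expression tables for *Bbs5* and 75 bases upstream for *Ift20*, and is the same for the other 3. They were chosen by the centred calls, after their values were seen. Capitals mark matches to GTTNCC, the recognition element of the RFX factors that control ciliary genes, on either strand.
Bbs5, chr2:69647021-69647170, plus strand: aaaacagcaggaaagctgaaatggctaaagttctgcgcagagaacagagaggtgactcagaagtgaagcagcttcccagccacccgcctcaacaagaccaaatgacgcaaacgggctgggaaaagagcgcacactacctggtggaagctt
Tctn2, chr5:124598599-124598748, plus strand: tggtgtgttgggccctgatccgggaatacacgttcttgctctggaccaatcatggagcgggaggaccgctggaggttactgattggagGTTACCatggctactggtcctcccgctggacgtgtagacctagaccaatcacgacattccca
Bbs9, chr9:22475565-22475714, plus strand: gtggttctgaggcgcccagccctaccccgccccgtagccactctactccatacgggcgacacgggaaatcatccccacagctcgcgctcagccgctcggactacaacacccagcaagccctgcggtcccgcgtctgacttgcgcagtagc
Bbs10, chr10:111298529-111298678, plus strand: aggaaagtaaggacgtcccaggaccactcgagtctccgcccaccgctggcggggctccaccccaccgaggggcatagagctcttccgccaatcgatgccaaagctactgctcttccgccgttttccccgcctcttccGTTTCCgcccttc
Ift20, chr11:78536211-78536360, plus strand: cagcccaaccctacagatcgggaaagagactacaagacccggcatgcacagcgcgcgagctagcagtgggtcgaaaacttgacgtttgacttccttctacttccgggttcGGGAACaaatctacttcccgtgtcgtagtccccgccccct

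RFX dimers bind an X-box, in which GTTNCC and its reverse complement GGNAAC face each other with 0 to 3 bases between them. In windows from 250 bases before to 50 bases after the RefSeq start, which were at hand for 31 of the 36 genes (not for *Ift81*, *Ift80*, *Ift122*, *Dync2li1* and *Tmem67*), this pair was found in 6 (19.4%). Over all 32851 windows of the genome it was found in 0.804%. These were not limited to 1 per gene or to expressed genes. For each of the 31 genes the window nearest to its start in the expression data was taken. The 2 starts lay 707 bases apart for *Cep290* and 302 bases apart for *Bbs2*. GTTNCC alone, on either strand and with the pairs included, was in 27 of the 31 windows (87.1%) and in 45.3% of all windows. CCAAT was in 18 (58.1%, against 37.4%), the cyclic AMP element TGACGTCA in 1 (*Ift57*, 3.23%, against 1.79%) and the palindromic motif of NRF1 in none (against 0.971%), each on both strands. The member windows were also richer in G and C (median 60.3%, against 52.7%) and in CpG (median observed over expected 0.803, against 0.384). The part of this composition in the matches was not tested. A match is a description of letters and not of binding.

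The 6 pairs are shown with the flanking bases, with the pair in capitals and positions counted from the start site of the promoter table, which lies 10 bases upstream of the start in the expression tables for *Mks1*, 16 bases upstream for *Tctn3* and at the same base for the other 4. *Mks1* was the only gene of the 6 that was called in RNA, and the other 5 were added after their values were seen.
Mks1, chr11:87853169-87853214, plus strand, from -46 to -1: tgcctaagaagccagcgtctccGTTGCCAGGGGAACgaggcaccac
Ift57, chr16:49699212-49699268, plus strand, from -82 to -26: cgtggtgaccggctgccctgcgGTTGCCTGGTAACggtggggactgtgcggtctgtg
Bbs7, chr3:36613475-36613532, minus strand, from -143 to -86: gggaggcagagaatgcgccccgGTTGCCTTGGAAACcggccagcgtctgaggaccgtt
Tctn3, chr19:40612337-40612393, minus strand, from -162 to -106: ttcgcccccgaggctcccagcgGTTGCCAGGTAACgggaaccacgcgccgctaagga
Tctn1, chr5:122264411-122264440, minus strand, from 21 to 50: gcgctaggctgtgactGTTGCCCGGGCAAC
Ahi1, chr10:20952560-20952589, plus strand, from 14 to 43: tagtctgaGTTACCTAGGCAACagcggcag

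In RNA, *Mks1* was 5.91-fold lower in RS, while *Ift57*, *Bbs7*, *Tctn3*, *Tctn1* and *Ahi1* had log2 fold changes of -0.29 to 0.33 and were not called. In H3K27ac, *Ift57* was the only one of the 6 that was called. Genes with the pair therefore included the second largest fall and 5 genes with differences under the fold threshold.

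Beyond the start sites, 46 and 52 H3K27ac intervals in PS and 146 and 54 in RS were assigned to the 36 genes more than 2 kb away, 98 of the 146 in RS replicate 1 being intronic. After overlapping intervals were merged, 110 regions at 25 genes were called in RS replicate 1 alone, and these are not described further. Regions were called in both PS replicates and neither RS replicate at 9 places in 7 genes, in both RS replicates and neither PS replicate at 12 places in 9 genes, and in all 4 samples at 7 places in 7 genes. No test was run on these regions, and the values are as deposited, without centring. Such counts were not made over the regions of all genes, so they do not set these genes apart.

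Of the 7 regions called in all 4 samples, 5 had a higher fold enrichment in both RS samples than in both PS samples. Most start sites of the genome went the other way before centring, but they are another kind of region. How often regions far from start sites did so in the genome was not counted. In an exon of *Ttc21b* (chr2:66222638-66226122), 30495 bases from the start site, the fold enrichment was 9.88 and 9.32 in PS and 21.2 and 19.2 in RS. The start site itself had 16.9 and 21.4 in PS and 9.76 and 10.5 in RS. An exon region of *Bbs9* (chr9:22677096-22681948) likewise had 7.00 and 6.03 in PS and 13.0 and 11.0 in RS, opposite to its start site. At *Cep290* (chr10:100542605-100545919, exon), the values were 6.17 and 7.13 in PS and 16.3 and 17.4 in RS. At *Ift81* (chr5:122592638-122594079, exon), they were 5.76 and 4.93 in PS and 13.0 and 11.0 in RS. The fifth region, intergenic and 263939 bases from the nearest start site (*Ddi1*), was assigned to *Dync2h1* (6.17 and 6.03 in PS, 15.1 and 13.4 in RS). RNA of *Ttc21b*, *Bbs9* and *Dync2h1* fell and that of *Cep290* rose, so the gain at these regions went with either direction.

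The other 2 regions were higher in PS. An intergenic region assigned to *Ift57* (chr16:49254560-49256763) was enriched 34.6-fold and 37.8-fold in PS and 4.88-fold and 5.22-fold in RS. Its nearest start site in the gene tables was that of *Myh15*, 197074 bases away, so the assignment to *Ift57* is by the deposited lists alone. A region assigned to *Tmem67* (chr4:12008343-12010279) had 11.5 and 16.4 in PS and 7.73 and 7.55 in RS.

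Among the regions seen in 1 stage only, the strongest in PS was annotated to an exon of *Ift88* (chr14:57472406-57474001), with a fold enrichment of 11.5 and 13.7. It had no counterpart in RS, while the start site of *Ift88* was higher in RS after centring. Intergenic regions assigned to *Ttc21b* (chr2:66170526-66172363 and chr2:66177989-66178570) had 12.3 and 8.77, and 9.88 and 11.5, in PS only, and one upstream of *Ift81* (chr5:122621191-122622349) had 10.7 and 10.4 in PS only. The regions seen only in both RS samples had 2.85 to 6.51, below these strongest regions of PS. They included an intron region of *Bbs5* (chr2:69657556-69658733, 5.29 and 5.81) and one of *Ift80* (chr3:68919069-68920031, 6.51 and 5.81). An interval that is missing from a list fell under the threshold of peak calling, and its value there is unknown.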

How the data were processed

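RNA-seq and H3K27ac ChIP-seq of PS and RS were grouped by assay and stage as labelled, with 2 biological replicates in each of the 4 groups. For RNA, the authors used STAR (2.4.2a) for alignment to mm10, kept unique alignments with at most 2 mismatches and split them between RefSeq isoforms by expectation maximization. They deposited read counts, whole and not normalized, and RPKM, scaled by the authors to transcript length and library size. For H3K27ac, the submitters' processing notes name Bowtie (1.1.1) and MACS2 (2.1.0.20140616). The deposited intervals give the pileup signal at each summit, the fold enrichment ratio over 1 background constant per sample, and -log10 p and q values, with the gene each interval was assigned to, which was not always the one with the nearest start site. No input entered this ratio. H3K27ac read totals are not given, so depth is known only from that constant (0.723 to 1.46 fragments) and the number of peaks. For RNA, 1 read was at most 1.04e-05% of a library.

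Isoforms were summed to 23343 genes. The 14647 genes that reached 10 counts in 2 or more libraries were tested with edgeR 4.0.16 (quasi-likelihood, TMM). The SE of a log2 fold change was its size over the square root of F. H3K27ac was the strongest peak within 2 kb of a start site, for the 11394 genes with one in all 4 samples, tested with limma 3.58.1 (trend) on log2 fold enrichment centred on each sample's median. The study's MAnorm needs aligned reads, and this centring took its place. P-values were adjusted by Benjamini-Hochberg over all genes tested, and calls needed an adjusted p under 0.05 and 1.5-fold. With 2 against 2, an exact permutation test of a single gene cannot go below 0.33. DESeq2 1.42.0, other scalings, filters, windows, a replicate block and leaving out each replicate were alternatives. R 4.3.3 and Python 3.11.15 were used, and the fits were tested on simulated data, where the share of edgeR calls that were false was above the nominal rate.

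The 36 genes and all other lists were chosen with earlier results of these data known. Values per sample are given for up to 3 called genes with the largest rise and fall in each role group and for the most abundant one, and the remaining genes are summarised. In H3K27ac, called genes are given. Of other genes, up to 4 called examples per pathway list with at least 50 counts are named. Exon overlaps used GENCODE M21. Promoters are from RefSeq on GRCm38.p6.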

Additional observations from a re-analysis of the deposited data

How the results depend on the processing

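In RNA, all 21 calls were kept under DESeq2 size factors, library size alone, the DESeq2 Wald test, no filter on low counts and limma on RPKM with a pseudocount of 1 or 0.1. A filter of 50 counts lost *Wdr35* and *Bbs4* and gained *Ift81*. These genes had more than 50 reads in every library. Their log2 fold changes moved from -0.69, -0.68 and 0.58 to -0.57, -0.56 and 0.70, across the fold threshold of 0.585 in log2. With 1 library left out, 5 to 6 of the 36 genes were higher and 15 to 16 lower. With no fold threshold, 6 were higher and 19 lower. In H3K27ac, the 10 calls were kept under quantile normalization, a window of 1 kb, a -log10 q of at least 5, peaks in at least 2 samples and pileup in place of fold enrichment. Without centring 1 gene was higher and 6 were lower, since centring takes out a median of -0.42. With 1 sample left out, 6 to 9 were higher and 3 to 4 lower. Same-numbered samples correlated in their deviations from the group means at 0.22 in RNA and 0.01 in H3K27ac, and the sources do not say that a number marks an animal. With the replicate number as a block, 5 and 16 genes were called in RNA and 7 and 3 in H3K27ac, and all 21 and 10 calls were kept. The count of genes with a start site peak in both replicates stayed at 35 or 36 under every alternative run.

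The sign turned only for genes that were not called in that assay. In RNA, *Bbs7* went from 0.04 to -0.0049 by library size and below 0 by limma with either pseudocount (-0.0034 and -0.0035), *B9d1* from -0.004 to 0.0029 by DESeq2 size factors, 0.0028 by the DESeq2 test and 0.12 under the filter of 50 counts, and *Tctn1* from -0.10 to 0.020 under that filter. Leaving out 1 library gave ranges of -0.014 to 0.18 for *Ift74*, -0.015 to 0.13 for *Bbs7*, -0.39 to 0.28 for *Tctn1*, -0.12 to 0.13 for *B9d1* and -0.030 to 0.23 for *Nphp4*. In H3K27ac, the 12 genes that turned without centring were *Ift52* (-0.12), *Ift74* (-0.20), *Ift172* (-0.0085), *Ift122* (-0.36), *Ift140* (-0.16), *Wdr19* (-0.12), *Wdr35* (-0.039), *Dync2h1* (-0.23), *Bbs7* (-0.27), *Tctn1* (-0.24), *Tctn3* (-0.015) and *Rpgrip1l* (-0.36). *Tmem67* turned to 0.19 in the window of 1 kb. That window leaves out the strongest PS replicate 1 interval (chr4:12089090-12089643, 21.4), which was assigned to the neighbouring *Rbm12b2* alone. The interval that remains in PS replicate 1 had 12.3. Leaving out 1 sample gave -0.099 to 0.071 for *Ift80*, -0.014 to 0.14 for *Ift122*, -0.075 to 0.60 for *Ift140*, -0.046 to 0.43 for *Dync2h1*, -0.14 to 0.44 for *Bbs7*, -0.24 to 0.0056 for *Bbs12*, -0.17 to 0.014 for *Mks1* and -0.12 to 0.038 for *B9d2*. Where a stage was left with 1 sample, that sample was assumed to vary like the other stage.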

Other observations

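Of 7 transcription regulators of ciliary genes, 5 could be tested in RNA. From PS to RS in dKO cells, 3 of these 5 rose and none fell, against 30.4% higher and 27.6% lower of all genes tested. *Rfx1* went from 4.61 and 7.38 RPKM to 37.7 and 38.6 (6.53-fold higher, adjusted p 1.71e-05 in edgeR), *Rfx3* from 1.40 and 1.21 to 5.98 and 5.61 (4.60-fold, adjusted p 1.20e-05) and *Foxj1*, the master regulator of motile cilia, from 7.56 and 11.7 to 54.1 and 60.0 (6.06-fold, adjusted p 1.84e-05). *Rfx2*, the most abundant RFX gene of the list, was at 113.0 and 131.8 in PS and 109.3 and 123.4 in RS, and did not pass. Its start site H3K27ac in wild-type cells was 23.1 and 25.8 in PS and 11.4 and 8.71 in RS (centred log2 difference -0.87, adjusted p 3.81e-05 in limma), whereas *Rfx1* (23.5 and 19.2 in PS, 26.9 and 21.5 in RS) and *Foxj1* (16.1 and 14.8 in PS, 24.4 and 16.8 in RS) were called higher after centring (0.60 and 0.82, adjusted p 0.00127 and 5.29e-05), and *Rfx3* was not called. *Ccno* did not pass, and *Mcidas* and *Gmnc* had at most 1 read in each library and were not tested.

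Some further genes had H3K27ac and RNA that differed in direction or call. *Cluap1*, an IFT-B gene, was enriched 21.8-fold and 25.2-fold in PS and 42.3-fold and 38.9-fold in RS (centred log2 difference 1.21, adjusted p 1.02e-08) with RNA that did not pass (adjusted p 0.268). *Ttc26* was higher in centred H3K27ac (0.85, adjusted p 0.00135) and lower in RNA, and RS replicate 1 alone was high (19.1, against 8.71 in RS replicate 2 and 9.88 and 9.32 in PS). They were named after their values were seen.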
